A study of Mus musculus with 8 samples.

Results

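Primordial germ cell-like (PGC-like) cells were a rare class among the cells of chimeric mouse embryos at E7.5 and E8.5. They were chosen by their own transcripts: at least 1 UMI (a counted RNA molecule) in at least 2 of the 4 germ cell genes Dppa3, Dnd1, Nanos3 and Prdm1, at least 1 UMI of Pou5f1, and no more than 2 of the 5 trophoblast genes Elf5, Wnt7b, Rhox6, Rhox9 and Ascl2. Of 49838 cells kept, 268 met the rule, 238 of 25401 Tet-TKO cells and 30 of 24437 WT host cells. Tet-TKO cells descend from 1 ES cell line of mixed C57BL/6J-129Sv background that lacks Tet1, Tet2 and Tet3 and expresses H2B-tdTomato from a CAG promoter. These ES cells were injected into C57BL/6J blastocysts, the embryos were pooled, and cells with tdTomato (Tet-TKO) were sorted apart from cells without it (WT host). E8.5 embryos gave 4 Tet-TKO libraries and 2 of WT host, and E7.5 embryos 1 of each, all made with 10x Genomics 3′ chemistry. Loss of the TET enzymes, the strain and the passage through ES cell culture differ together between the fractions and cannot be told apart, and control embryos injected with WT ES cells were not analysed here. Sex was not a term in the comparisons. The RNA of Xist differed between the fractions, so sex cannot be told apart from these either. Nothing in the labels says that libraries came from separate pools of embryos, so the spread between them may be technical.

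Primordial germ cells are the founders of the germline. In the mouse they arise from a few proximal epiblast cells under BMP signals, when the transcription factors Prdm1 (Blimp1), Prdm14 and Tfap2c repress the somatic programme and restore genes of pluripotency. They then move through the hindgut to the gonads and lose most of their DNA methylation, a process in which TET enzymes oxidise 5-methylcytosine. Dppa3 (Stella) is a chromatin protein of germ cells and oocytes, while Dnd1 and Nanos3 are RNA-binding proteins that keep the cells alive.

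The 8 libraries held between 65601218 and 136982886 UMIs, and the PGC-like cells of a library held between 84012 and 2326487. Their median depth ranged from 11683 to 75810 UMIs per cell and that of all kept cells from 12178 to 68931, deepest in E8.5 Tet-TKO library 4. A doublet caller marked 29 of 268 PGC-like cells, and these were kept unless stated. At E7.5 they were 6 of 115 in Tet-TKO and 2 of 16 in WT host, where 4.92% and 6.12% of all kept cells were marked. At E8.5 they were 4 of 42, 8 of 52, 0 of 16 and 3 of 13 in Tet-TKO (all kept cells 5.82%, 7.83%, 2.39% and 1.19%). In E8.5 WT host they were 1 of 9 in library 1 and all 5 of library 2 (all kept cells 7.30% and 7.75%). No cell barcode of a PGC-like cell was shared between libraries, and any pair of libraries shared at most 28 kept barcodes. At least 1 of the trophoblast genes was detected in 108 PGC-like cells. Rhox9 and Rhox6 made up most of these UMIs, with 397 and 113, against 3 each for Elf5 and Wnt7b.

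Most germ cell markers that the rule did not use were higher in the PGC-like cells than in the other cells of the same library. As the cells were chosen by their transcripts, this is a description without a test. Levels are given as CPM, the usual counts-per-million scale for UMIs summed over the cells. Tfap2c stood at 74.4 and 79.1 CPM in the Tet-TKO and WT host PGC-like cells of E7.5, at 107, 194, 135 and 81.0 CPM in E8.5 Tet-TKO and at 128 and 250.1 CPM in E8.5 WT host, and at 4.44 to 53.1 CPM in other cells. The 8 values overlapped between the genotypes, and all exceeded the other cells of their own library. Ifitm3, a membrane protein used as an early mark of germ cell competence, was at 609.9 and 628 CPM at E7.5, at 815, 1293, 658 and 418 CPM in E8.5 Tet-TKO, and at 1021 and 1715 CPM in E8.5 WT host, between 8.42 and 49.6 times the level of the other cells. Kit, the receptor that carries survival signals to migrating germ cells, was 3.72 to 9.32 times higher than in other cells. Alpl, the alkaline phosphatase by which germ cells are classically stained, Ifitm1, Klf2, Sox2 and Nanog were also higher in 8 of 8 libraries. Prdm14 was higher in 7 of 8, at 6.40 to 26.1 CPM in the Tet-TKO libraries, and had no UMI in E8.5 WT host library 2, whose 5 cells allow up to 35.7 CPM. Tcl1 had UMIs in Tet-TKO libraries 2, 3 and 4 of E8.5 and in no other library.

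**Figure D1:**
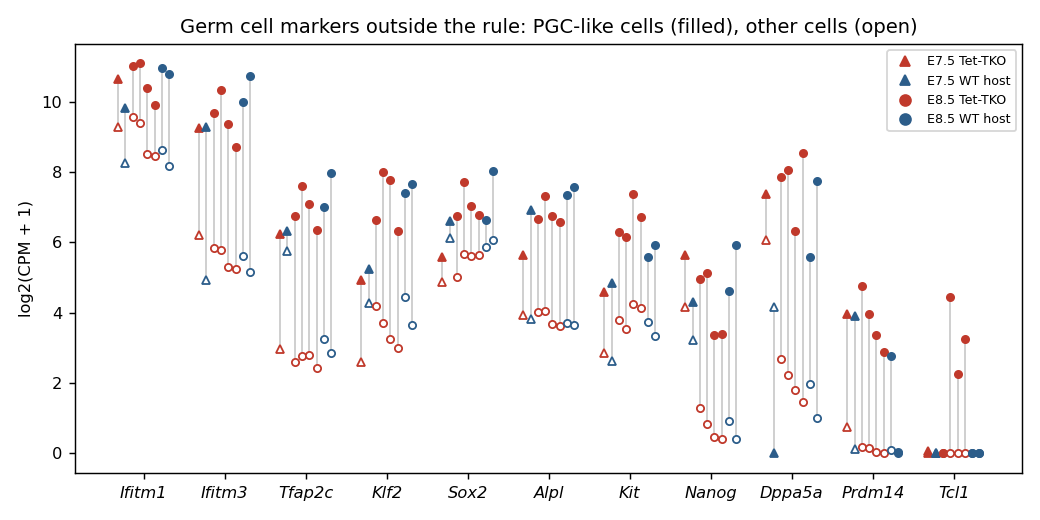
Levels of 11 germ cell markers outside the rule, as log2(CPM + 1), in the PGC-like cells (filled) and in all other kept cells (open) of each of the 8 libraries, joined by a grey line. For Ifitm1, Ifitm3, Tfap2c, Klf2, Sox2, Alpl, Kit and Nanog all 8 filled points lie above their open points. Tcl1 was near 0 in most libraries, and Dppa5a was at 0 in the PGC-like cells of E7.5 WT host.

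Listed germ cell genes outside the rule were counted over the 6 libraries that held at least 10 PGC-like cells, among genes that entered the tests of stage. Of 10 regulators, 6 were higher in PGC-like than in other cells in all 6 libraries and 1 was lower in all 6, where of all 7253 genes 14.8% were higher and 16.0% lower. Sall4, a zinc finger protein of pluripotent and germ cells, ranged from 159 to 322 CPM across libraries, and Lin28a, which blocks maturation of let-7, from 66.5 to 219 CPM. Pou5f1, part of the rule, reached 595 CPM. Of 12 effector genes, 8 were higher in all 6 libraries and none was lower. The surface proteins Ifitm1 and Ifitm2 ranged from 907 to 2181 CPM and from 821 to 1418 CPM. Among 12 genes of germ cell migration and survival, 4 were higher and 1 lower in all 6. Bax, an executor of apoptosis, was at 322 to 578 CPM, Trp53 at 239.9 to 327 CPM and the adhesion proteins Epcam and Itgb1 at 309.6 to 516 CPM and 66.5 to 159 CPM. The genes entered the tests through their level in PGC-like cells, so these counts are a description.

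Genes outside the rule were ranked by the log2 ratio of PGC-like over other cells, taken at its lowest in the 6 libraries. The ranking covers the 1727 genes with at least 20 UMIs in the PGC-like cells of each. They entered through their level in PGC-like cells, so the ranking is a description. Levels of Dppa3 itself were not used in it. Ifitm3 came first (3.07), followed by Psme1 (1.93), Alpl (1.76), Psme2 (1.72) and Aldh2 (1.69). Psme1 and Psme2 encode the PA28 activator of the proteasome. Psme1 stood at 286 to 548 CPM in PGC-like cells and at 63.8 to 130.1 CPM in other cells. Aldh2, a mitochondrial aldehyde dehydrogenase, stood at 143 to 386 CPM, against 52.6 to 115 CPM.

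PGC-like cells differed in how many of the 4 markers they showed. In all, 141 PGC-like cells had 2 of the 4 markers, 88 had 3 and 39 had all 4. In Tet-TKO 72, 33 and 10 cells had 2, 3 and 4 markers at E7.5, and 54, 45 and 24 at E8.5. In WT host these were 10, 4 and 2 at E7.5, and 5, 6 and 3 at E8.5. Cells just outside the rule, with Pou5f1 and 1 marker, were compared with these for the 4 E8.5 Tet-TKO libraries as a description. Tfap2c was at 21.3 ± 15.3 CPM (SD, n = 4) with 1 marker, 81.5 ± 83.6 with 2, 196 ± 59.8 with 3 and 164 ± 12.4 with 4. Klf2 was at 10.4 ± 9.35, 83.7 ± 111, 323 ± 156 and 176 ± 84.9 CPM. Both were lower with 4 markers than with 3. Dnmt3b, a de novo DNA methyltransferase of the epiblast, was at 95.2 ± 26.7, 100.3 ± 58.9, 25.9 ± 29.1 and 14.5 ± 12.0 CPM. Among cells with 2 markers Tfap2c ran from 14.3 to 196 CPM over the 4 libraries, and among cells with 4 markers from 148 to 178 CPM. In the E7.5 Tet-TKO library Dnmt3b was at 382, 244, 32.1 and 137 CPM with 1, 2, 3 and 4 markers, and T (brachyury), a mesoderm factor, at 186, 302, 393 and 297 CPM.

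Markers of other cell types differed by list. The 6 genes of extraembryonic ectoderm, 5 of them in the rule and the sixth Tfap2c, summed to 102 to 499 CPM in PGC-like cells, above the other cells in 7 of 8 libraries, in E8.5 Tet-TKO library 2 with 499 against 8.67 CPM. The 8 mesoderm genes summed to 11.9 to 661 CPM, below the other cells in 8 of 8 libraries. A longer list of 16 somatic mesoderm genes summed to 202 to 1582 CPM, against 395 to 1246 CPM in other cells. It exceeded the other cells at E7.5 and in Tet-TKO libraries 1 and 3 and WT host library 1 of E8.5. In the remaining E8.5 libraries it lay below them. The 12 genes of the primed epiblast summed to 302 to 715 CPM at E8.5, against 149 to 208 CPM in other cells. The 6 genes listed for cardiomyocytes summed to 11.2 to 37.2 CPM in PGC-like cells and 42.4 to 1056 CPM in other cells, and the 6 myeloid genes to at most 5.84 CPM, with Spi1, Ptprc, Fcer1g and Lyz2 at 0. Endothelial genes summed to 5.62 to 58.4 CPM and neural genes to 14.9 to 143 CPM, against 52.3 to 128 CPM and 14.1 to 93.6 CPM in other cells. The neural sum exceeded the other cells in E8.5 WT host library 2 (143 against 93.6 CPM) and in E7.5 WT host (23.3 against 14.1 CPM). The 10 endoderm genes summed to 35.6 to 257 CPM in 7 libraries and to 1935 CPM in E7.5 WT host, where Spink1 contributed 1209 CPM and Ttr 316 CPM. Other cells held 44.1 to 3062 CPM of them. Erythroid, trophoblast and endoderm cells, the last with at least 3 of the 10 genes, were also left out. This left 10 of 16 PGC-like cells in E7.5 WT host and 111 of 115 in E7.5 Tet-TKO. At E8.5 it left 41 of 42, 51 of 52, 15 of 16 and 11 of 13 in Tet-TKO, and 6 of 9 and 4 of 5 in WT host. No PGC-like cell had over 1% globin UMIs, so those removed held at least 3 endoderm genes. The expression tests were not run without them. Sox17, which endoderm and germ cells both express, was higher than in other cells in 8 of 8 libraries, at 11.9 to 97.7 CPM. None of 1075 and 2223 erythroid cells of the E8.5 WT host libraries met the rule, nor did any of 235 and 193 cardiomyocytes. At least 2 of the 4 markers were nevertheless found in 1 and 0 of these erythroid cells and in 3 and 1 of these cardiomyocytes.

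The number of PGC-like cells was compared between the genotypes. At E8.5 the rule found 42 of 7039, 52 of 9545, 16 of 2299 and 13 of 1008 kept cells in the Tet-TKO libraries, which are shares of 0.597%, 0.545%, 0.696% and 1.29%. In WT host it found 9 of 8257 and 5 of 9038 cells, or 0.109% (95% exact binomial interval 0.0499 to 0.207) and 0.0553% (0.0180 to 0.129). Each Tet-TKO share lay above both WT host shares. The means were 0.782% ± 0.344 (SD, n = 4) and 0.0822% ± 0.0380 (SD, n = 2), a 9.52-fold difference. The two-sided exact permutation test gave p = 0.133, which is the smallest p that 4 against 2 libraries allow, so the comparison could not pass 0.05. At E7.5, without replicates, the shares were 2.09% (1.73 to 2.50) in Tet-TKO, 115 of 5510 cells, and 0.224% (0.128 to 0.364) in WT host, 16 of 7142 cells. The intervals cover counting error only.

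**Figure D2:**
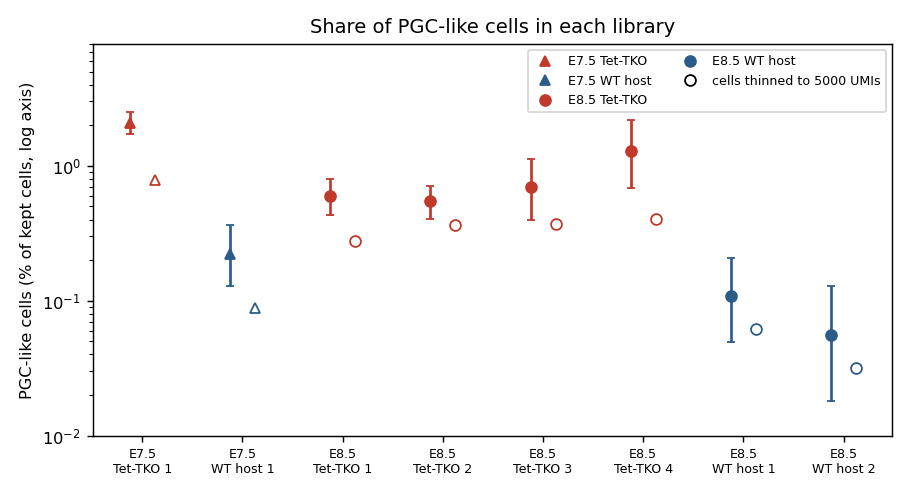
Share of PGC-like cells among the kept cells of each library, in percent on a log axis, with 95% exact binomial intervals (filled), and the share after every cell was thinned to 5000 UMIs (open). The E8.5 Tet-TKO libraries lie between 0.545% and 1.29%, above the WT host libraries at 0.109% and 0.0553%.

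Depth bears on these shares, since a deeper cell shows more of the marker genes. After thinning each cell to 5000 UMIs, with 281, 516, 76 and 89 Tet-TKO and 552 and 724 WT host cells of E8.5 left out as too shallow, the shares were 0.278%, 0.362%, 0.368% and 0.402% against 0.0623% and 0.0315%. The E8.5 Tet-TKO values then spanned a narrower range, still above both WT host values. They rest on few cells, on average 3.69 in Tet-TKO library 4 and 2.62 in WT host library 2. At E7.5 thinning gave 0.788% and 0.0890%. As a share of all Pou5f1-positive cells, PGC-like cells made up 3.04%, 4.48%, 4.76% and 6.44% in E8.5 Tet-TKO and 0.808% and 1.05% in WT host. Shares are relative to the other cells of the same fraction, so more PGC-like cells and fewer cells of other types cannot be told apart.

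The filter on ribosomal UMIs took PGC-like cells out selectively. PGC-like cells had a median of 25.9% to 31.6% ribosomal UMIs in the Tet-TKO libraries, where other cells had 22.9% to 23.9%. Only 41 cells of the 8 libraries exceeded the limit of 35% among those that passed the other filters, and 21 of these, or 51.2%, met the marker rule. They were 2 of 4 removed cells in E7.5 Tet-TKO, 6 of 11, 5 of 9, 4 of 7 and 3 of 6 in libraries 1 to 4 of E8.5 Tet-TKO, and 1 of 4 in E8.5 WT host library 1. With these cells returned, the E8.5 shares were 0.681%, 0.597%, 0.867% and 1.58% in Tet-TKO and 0.121% and 0.0553% in WT host.

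Whether PGC-like cells matched their sorted fraction was read from 2 sources. The tdTomato transcript was at 69.7 CPM in E7.5 and at 56.5, 41.4, 126 and 119 CPM in E8.5 Tet-TKO PGC-like cells, with at least 1 UMI in 77 of 115, 19 of 42, 17 of 52, 11 of 16 and 12 of 13 of them. In other cells of E8.5 Tet-TKO libraries 1 and 2 it was higher, at 93.4 and 98.2 CPM, beyond the exact Poisson intervals of the PGC-like cells (40.2 to 77.3 and 27.5 to 59.8 CPM), while in libraries 3 and 4 it was at 127 and 145 CPM, of which only the latter lay outside (97.3 to 160 and 98.3 to 144 CPM). No WT host PGC-like cell had a tdTomato UMI.

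The second source was a pair of ribosomal protein genes. Rps3a1 (chr3:86137940-86142702, minus strand, GRCm38) and Rps3a3 (chr13:108670603-108671397, plus strand) are close copies whose reads the counting may not tell apart, and which of them received the UMIs differed between the fractions. Of 237 Tet-TKO PGC-like cells with at least 10 UMIs of the pair, Rps3a1 took at most 21.0% in each. In E7.5 WT host it took 94.6% to 100% in all 16 cells. In E8.5 WT host library 1, 6 of 9 PGC-like cells were above 90%, 1 lay between and 2 were under 30%, as in Tet-TKO cells; in library 2, 3 of 5 were above 90%, 1 lay between and 1 had too few UMIs. Among other WT host cells at E8.5, 5.07% and 2.18% showed the Tet-TKO pattern. Keeping only cells whose pattern matched their fraction raised the difference in mean share at E8.5 from 9.52-fold to 14.8-fold. The limits of 30% and 90% were set after the values were seen.

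**Figure D3:**
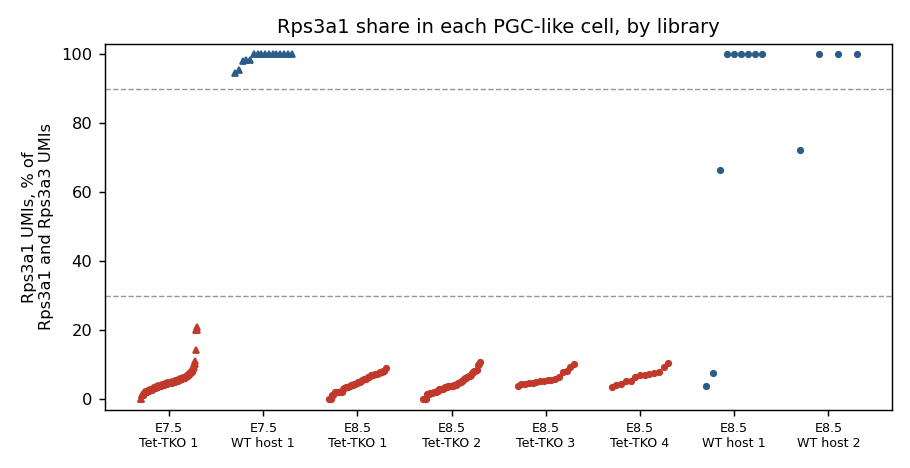
UMIs of Rps3a1 as a percentage of all Rps3a1 and Rps3a3 UMIs in each PGC-like cell with at least 10 such UMIs, by library; dashed lines mark 30% and 90%. Tet-TKO cells lie at or below 21.0%, and WT host cells are near 100% except for 4 cells of the E8.5 libraries.

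The expression of PGC-like cells was then compared between Tet-TKO and WT host at E8.5, on UMIs summed over the PGC-like cells of each library, with edgeR. A call needed an adjusted p under 0.01 together with a log2 fold change of at least 1 in size. The WT host sums rest on 9 and 5 cells. Of 6954 genes tested, 8 were called, or 0.115%, 3 higher and 5 lower in Tet-TKO, and 482 had an unadjusted p below 0.05. DESeq2 called 2 higher and 6 lower. In simulated sums of this design, 2.5%, 44% and 77% of genes changed by a log2 fold of 1, 2 and 3 were called, so most smaller changes were not detectable.

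None of the tested germ cell genes was called. Leaving out the genes of the rule, 2 of 10 regulators tested had a positive log2 fold change, with a median of -0.15, and 7 of 12 effectors, with a median of 0.43, while over all genes tested 56.3% were positive with a median of 0.08. Tfap2c differed by -0.34 ± 0.39 (SE) on the log2 scale, Sall4 by -0.13 ± 0.29, Lin28a by -0.17 ± 0.36 and Klf2 by -0.06 ± 0.46, each with an adjusted p of at least 0.91. For Ifitm1 and Ifitm2 the differences were -0.07 ± 0.28 and 0.26 ± 0.24, and for Ifitm3 -0.63 ± 0.33. Kit was at 78.3, 70.9, 167 and 104 CPM in Tet-TKO and at 46.7 and 59.5 CPM in WT host, without overlap, and its log2 difference of 1.12 ± 0.48 (95% interval 0.11 to 2.13) did not pass (adjusted p = 0.70). A p that misses the threshold does not show that these genes were alike. The 95% intervals of Tfap2c (-1.18 to 0.49), Klf2 (-1.03 to 0.91) and Ifitm3 (-1.33 to 0.078) reached past a log2 difference of -1, and that of Sall4 (-0.74 to 0.48) did not.

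**Figure D4:**
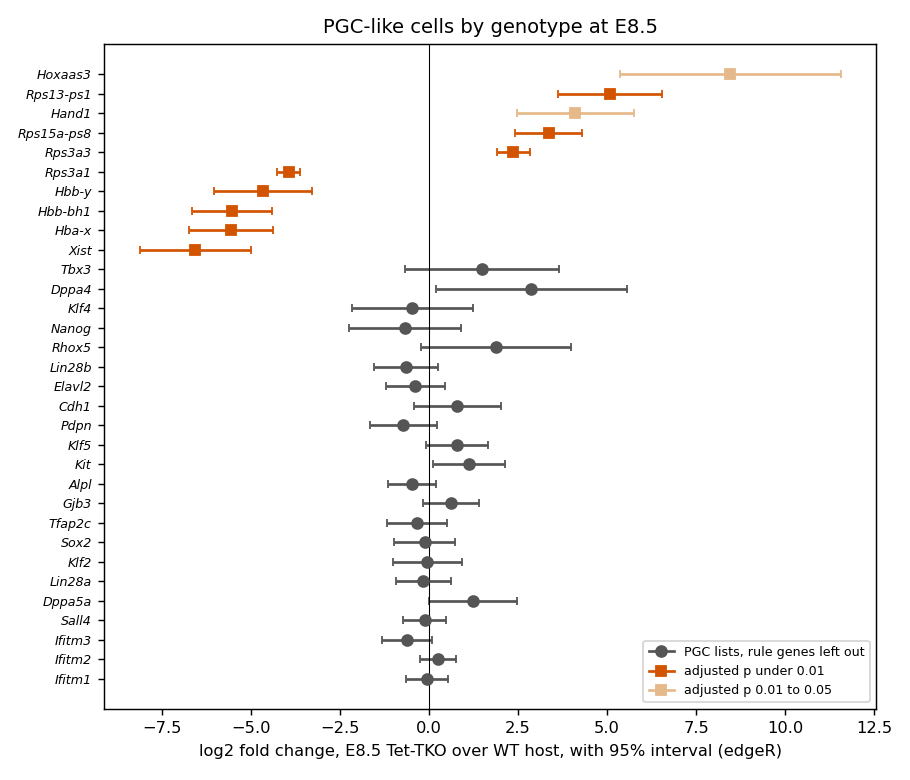
Log2 fold change of E8.5 Tet-TKO over WT host PGC-like cells with 95% intervals from edgeR, for tested germ cell genes outside the rule (grey circles) and for the genes with an adjusted p under 0.01 (orange) or from 0.01 to 0.05 (pale squares). Hoxaas3 has no UMI in WT host, so its fitted value has no upper limit in these counts.

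The called genes lay outside the germ cell lists. Rps3a1 was lower in Tet-TKO by 3.95 ± 0.16 on the log2 scale and Rps3a3 higher by 2.36 ± 0.22, and 2 ribosomal pseudogenes, Rps15a-ps8 and Rps13-ps1, were higher, by 3.36 ± 0.45 and 5.07 ± 0.69. These 4 belong to families of near-identical copies, so their counts are uncertain, and how reads were divided between copies was not measured. They differed in the same direction in the other cells, where Rps15a-ps8 was at 143 to 155 CPM in E8.5 Tet-TKO and at 3.56 and 10.2 CPM in WT host. The WT host sums include the PGC-like cells described above with an Rps3a1 share under 30% (2 in library 1) or between the limits (1 in each library). Rps3a3 stood at 798 and 1307 CPM in these sums. Over 19 alternatives its log2 difference ran from 1.92 to 14.3. Xist, the RNA that silences an X chromosome in female cells, had 3 UMIs in Tet-TKO PGC-like cells and 37 in WT host, 34 of them in library 1. The ratio was 0.00729 (exact interval 0.00144 to 0.0230). In other cells of E8.5 Xist was at 6.20 to 10.7 CPM in Tet-TKO and at 360 and 322 CPM in WT host. The part of sex in this difference was not tested.

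The embryonic globins Hba-x, Hbb-bh1 and Hbb-y were called lower in Tet-TKO. Hba-x was at 7.25, 11.8, 9.37 and 1.07 CPM in Tet-TKO and at 158 and 631 CPM in WT host PGC-like cells. The erythroid transcription factors Klf1 and Gata1 had no UMI in the WT host PGC-like cells. Globin RNA differed likewise outside the class: other cells held 210.2 to 732 CPM of Hba-x in E8.5 Tet-TKO and 10142 and 22886 CPM in WT host. The part of RNA from erythroid cells in this difference was not tested.

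At an adjusted p of 0.05 with no minimum fold change, 10 of 6954 genes were called, or 0.144%, and the pair added were Hoxaas3 and Hand1, both higher in Tet-TKO and named after their values were seen. Hand1 (chr11:57828705-57832818), a transcription factor of extraembryonic mesoderm and heart, was at 79.7, 53.2, 63.7 and 66.1 CPM in Tet-TKO and at 5.84 and 0 CPM in WT host, where it had 1 UMI, a ratio of 16.8 (exact interval 2.98 to 668; adjusted p = 0.047). At E7.5 its levels were 120 CPM in Tet-TKO and 74.4 CPM in WT host. Hoxaas3, transcribed across the Hoxa cluster on the opposite strand, was at 54.4 to 120 CPM in Tet-TKO and had no UMI in WT host, at least 6.90-fold higher against a floor of 3 UMIs over both WT host libraries (adjusted p = 0.023). Without WT host library 1 the bound fell to 2.27-fold (adjusted p = 0.73) and without library 2 to 4.63-fold (adjusted p = 0.28), and the call was also lost among cells with at least 3 markers (adjusted p = 0.58) and with DESeq2 (adjusted p = 0.061). Over 19 alternatives Hoxaas3 had an adjusted p under 0.05 in 12. These include the relaxed threshold and no minimum number of PGC-like cells, which repeat the main fit. In other cells of E8.5 Hand1 was at 118 ± 51.7 CPM (SD, n = 4) in Tet-TKO and 96.6 ± 16.4 CPM (SD, n = 2) in WT host, and Hoxaas3 at 93.7 to 142 CPM and at 74.6 and 81.2 CPM. Over the 19 alternatives, those repeats included, Hand1 had an adjusted p under 0.05 in 6. Its call was lost, among other settings, without Tet-TKO library 1, 3 or 4 (adjusted p = 0.051, 0.082 and 0.056). It was also lost among cells with at least 3 markers (0.42), and without either WT host library, which leaves 1 in that group.

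Imprinted genes and the DNA methylation machinery gave no call. Of 29 imprinted genes 19 were tested, 17 with a positive difference, with a median of 0.41. Over all genes tested 56.3% were positive, with a median of 0.08. Snrpn, a paternally expressed gene, was at 139 to 196 CPM in Tet-TKO and at 64.2 and 47.6 CPM in WT host PGC-like cells (log2 difference 1.72 ± 0.35, adjusted p = 0.088), and in other cells at 205 to 276 CPM against 68.6 and 62.9 CPM. The most abundant, Phlda2, Peg3, Gnas and Meg3, ranged from 363 to 1488, 309.6 to 790.1, 179 to 577 and 169.9 to 366 CPM over the libraries. The 21 imprinted genes that entered the tests of stage were compared over the 6 libraries with at least 10 PGC-like cells. In all 6, 5 of them (23.8%) were lower in PGC-like than in other cells and 1 (4.76%) was higher. Of all 7253 genes 16.0% were lower and 14.8% higher. Of 18 genes of the methylation machinery 14 were tested, 9 with a positive difference, with a median of 0.20. Parp1, Apex1 and Trim28 ranged from 268 to 455, 309 to 350.2 and 253 to 476 CPM. The maintenance cofactor Uhrf1, at 34.0 to 88.4 CPM in PGC-like cells, was below the other cells, at 112 to 137 CPM, in 8 of 8 libraries. Of 14 histone modifiers 13 were tested and 8 were positive, with a median of 0.15, and Cbx1, Ezh2, Kdm1a and Cbx5 ranged from 208 to 502, 184 to 278, 167 to 254 and 171 to 263 CPM.

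Transcripts of the targeted genes remained countable. Tet1 was at 16.3 CPM in E7.5 Tet-TKO and 37.2 CPM in WT host PGC-like cells, and at 8.70, 22.2, 52.5 and 36.3 CPM in E8.5 Tet-TKO against 52.5 and 83.4 CPM in WT host, with the highest Tet-TKO value just under the lower WT host value. Tet2 ranged from 0 to 18.7 CPM and Tet3 from 0 to 22.4 CPM, with too few UMIs to be tested. A 3′ tag outside a deleted part cannot show the deletion.

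Genes of the later germline that promoter methylation keeps silent were scarce. Of 28 such genes, 22 had at least 1 UMI in the PGC-like cells, and the list summed to 52.2, 44.3, 33.7 and 52.2 CPM in E8.5 Tet-TKO, to 52.5 and 0 CPM in WT host, and to 42.6 and 32.6 CPM at E7.5 in Tet-TKO and WT host. In other cells it summed to 10.1, 9.63, 8.01 and 8.14 CPM in E8.5 Tet-TKO, to 8.07 and 4.51 CPM in WT host, and to 24.5 and 25.2 CPM at E7.5. The sum was thus higher in PGC-like cells except in E8.5 WT host library 2. None of the 28 genes passed the filter for the genotype test. The 4 most abundant were Sycp3 and Syce1, proteins of the synaptonemal complex, the germ cell helicase Ddx4 (Vasa) and the meiotic cohesin subunit Stag3. Ddx4 was at 14.2 CPM in E7.5 Tet-TKO and 3.75 to 11.6 CPM in E8.5 Tet-TKO, had no UMI in E7.5 WT host and E8.5 WT host library 2, and had 2 UMIs (11.7 CPM) in E8.5 WT host library 1, against 0.513 to 3.72 CPM in other cells. Sycp3 was at 3.20 to 23.3 CPM where detected, and Stag3 was higher than in other cells in 7 of 8 libraries, at 2.15 to 8.53 CPM. Syce1 reached 11.7 CPM. The promoters of Ddx4, Stag3 and Sycp3 are shown since, of these 4, they hold the E-box CACGTG, a motif bound by basic helix-loop-helix factors. RefSeq promoters of 300 bases on GRCm38.p6, from 250 before to 50 after the gene start, were searched on both strands (the motif reads alike on each). The E-box was in 12 of the 26 promoters of the list that matched by symbol and in 7.24% of all 27025. The motif itself holds a CpG, and promoters of the list had a median of 19.5 CpGs, against 7 over all. The comparison was not matched for CpGs. The sequences run 5′ to 3′ on the gene's strand with the E-box in capitals. That of Ddx4 is chr13:112652261-112652560 (minus strand, 38 CpGs), that of Stag3 chr5:138280259-138280558 (plus, 30 CpGs) and that of Sycp3 chr10:88459337-88459636 (plus, 15 CpGs).
Ddx4: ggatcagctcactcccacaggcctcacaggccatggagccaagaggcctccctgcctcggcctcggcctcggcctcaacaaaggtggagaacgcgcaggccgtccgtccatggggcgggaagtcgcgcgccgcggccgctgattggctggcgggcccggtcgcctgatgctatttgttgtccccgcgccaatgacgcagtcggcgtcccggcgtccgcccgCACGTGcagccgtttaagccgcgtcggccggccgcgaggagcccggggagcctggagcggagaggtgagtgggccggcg
Stag3: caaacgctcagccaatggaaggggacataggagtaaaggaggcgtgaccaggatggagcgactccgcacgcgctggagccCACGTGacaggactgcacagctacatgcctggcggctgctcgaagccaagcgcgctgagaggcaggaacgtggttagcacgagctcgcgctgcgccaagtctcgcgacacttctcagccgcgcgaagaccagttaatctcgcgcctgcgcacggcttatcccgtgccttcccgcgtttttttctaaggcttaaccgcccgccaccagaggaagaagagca
Sycp3: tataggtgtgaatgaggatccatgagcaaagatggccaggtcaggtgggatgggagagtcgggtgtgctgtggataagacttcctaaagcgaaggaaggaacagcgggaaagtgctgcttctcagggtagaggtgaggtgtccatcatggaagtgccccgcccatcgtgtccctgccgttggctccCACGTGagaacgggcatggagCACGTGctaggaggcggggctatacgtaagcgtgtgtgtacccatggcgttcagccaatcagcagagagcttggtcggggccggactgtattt
A match of letters is a description of these windows and not a binding site. DNA methylation of the promoters was not measured in these libraries. The palindromic TFAP2 motif GCCNNNGGC was in 10 of 26 matched promoters of the germ cell regulators and effectors, among them Nanos3, Kit and Alpl, and in 16.5% of all promoters. Regulators and effectors had medians of 14 and 10 CpGs, against 7 over all promoters, and were not matched for CpGs either.

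The stages were compared next, E8.5 against E7.5, with genotype as a term and all 8 libraries. Each genotype has 1 library at E7.5, and these are assumed to vary as the E8.5 libraries do. The stages also differed in how many markers their PGC-like cells showed, as counted above, and marker number was not a term. Of 7260 genes tested, 9 were called, or 0.124%, 1 higher and 8 lower at E8.5. With an adjusted p of 0.05 and no minimum fold change 34 were called, or 0.468%, 14 higher and 20 lower. Among the 14 were Dppa3 and Rhox9, genes of the rule, whose values were used to choose the cells, so these calls are no result. An unadjusted p below 0.05 was found for 704 genes. The calls leaned on single libraries. Without E7.5 WT host, or without E8.5 WT host library 2, none of the genes was called (550 and 631 at an unadjusted p below 0.05), and without E8.5 Tet-TKO library 1 there were 24.

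Of 12 genes of the primed epiblast tested, 2 were called lower at E8.5 and none higher, and the other 10 did not pass. The median log2 difference of the 12 was -1.65, against 0.02 over all genes tested. A fall with stage was not particular to PGC-like cells. In other cells the 12 genes summed to 1111 and 1059 CPM in Tet-TKO and WT host at E7.5 and to 149 to 208 CPM at E8.5. In Pou5f1-positive cells outside the rule with at most 2 trophoblast genes they went from 1226 and 1259 CPM to 196 to 404 CPM. In PGC-like cells they went from 607 and 1172 CPM to 302 to 715 CPM. Dnmt3b (chr2:153649450-153687730) was at 178 and 549 CPM at E7.5 in Tet-TKO and WT host and at 34.0 to 84.2 CPM over the 6 E8.5 libraries, a log2 change of -2.18 ± 0.32 (adjusted p = 0.0025). All E8.5 values were below both E7.5 values. Its change was no longer called among cells with at least 3 of the 4 markers (-1.05, adjusted p = 0.76), without E7.5 WT host (-1.61, adjusted p = 0.052) or without E8.5 WT host library 2 (-2.15, adjusted p = 0.028). Slc7a3, an amino acid transporter of the epiblast, was at 26.7 and 97.7 CPM at E7.5 and at 1.45 to 11.9 CPM at E8.5 (-2.65 ± 0.45). Its adjusted p rose to 0.63 without E7.5 Tet-TKO and 0.16 without E7.5 WT host. L1td1, at 74.4 to 238 CPM over the libraries, and Utf1, at 48.0 to 126 CPM, did not pass.

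Other genes called lower at E8.5 were Apela, a peptide ligand of the apelin receptor, from 49.9 and 55.8 CPM to at most 14.5 CPM (-3.29 ± 0.52), S100a10, a calcium-binding family protein (-2.26 ± 0.33), Ldhb, a subunit of lactate dehydrogenase (-1.71 ± 0.25), and the intermediate filament Vim, with no overlap between the stages. Ldhb was at 427 and 270 CPM at E7.5 and at 47.6 to 181 CPM at E8.5. In other cells Ldhb was at 224 and 163 CPM and then at 40.3 to 87.9 CPM, so its fall was not particular to PGC-like cells. Vim was at 326 and 270 CPM and then at 71.5 to 167 CPM (-1.22 ± 0.21). Without E7.5 Tet-TKO the adjusted p of Apela, S100a10, Ldhb and Vim was 0.83, 0.75, 0.75 and 0.63. Sprr2a3 and Spink1 were also called lower but overlapped between the stages, Spink1 with 1209 CPM in E7.5 WT host alone. The erythroid gene Hba-x was the 1 called higher, with no UMI in either E7.5 library and 99 at E8.5, 80 of them in the WT host libraries, where it stood at 158 and 631 CPM against 1.07 to 11.8 CPM in Tet-TKO. Pooled over both genotypes, that is at least 27.1-fold higher against a floor of 3 UMIs over both E7.5 libraries. The pooled bound is 12.9-fold without E8.5 WT host library 2 and 2.29-fold without E7.5 Tet-TKO. The E7.5 PGC-like cells held 2325159 UMIs in Tet-TKO and 214995 in WT host. These are therefore not bounds on a change within a genotype. The part of the erythroid RNA described above was not tested.

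At the adjusted p of 0.05, 2 germ cell genes outside the rule were higher at E8.5. Klf2, a Krüppel-like factor of naive pluripotency, was at 29.7 and 37.2 CPM at E7.5 and at 98.6, 257, 217, 80.0, 169 and 202 CPM at E8.5, a change of 2.38 ± 0.44 (adjusted p = 0.016). Klf2 did not pass without E7.5 Tet-TKO (adjusted p = 0.83), E7.5 WT host (0.089) or E8.5 WT host library 2 (0.061). Kit (chr5:75574916-75656722) was at 23.2 and 27.9 CPM and then at 78.3, 70.9, 167, 104, 46.7 and 59.5 CPM (1.89 ± 0.40, adjusted p = 0.036). Kit did not pass without E7.5 Tet-TKO (0.81, adjusted p = 0.94), E7.5 WT host (adjusted p = 0.052), or E8.5 WT host library 1 or 2 (0.056 and 0.098). Neither gene overlapped between the stages. Over 19 alternatives Klf2 had an adjusted p under 0.05 in 14 and Kit in 12. Dppa3, a gene of the rule, went from 142 and 126 CPM to between 278 and 834 CPM. As its values were used to choose the cells, this is a description, although it is among the genes counted at this threshold. Leaving out the genes of the rule, 7 of 10 regulators and 9 of 12 effectors tested were positive, with medians of 0.64 and 0.44. Over all genes tested for stage 52.3% were positive. Cells with at least 1 Kit UMI made up 33.9% and 31.2% of PGC-like cells in Tet-TKO and WT host at E7.5. At E8.5 they made up 69.0%, 53.8%, 93.8% and 84.6% in Tet-TKO and 44.4% and 60% in WT host. The highest shares were in E8.5 Tet-TKO libraries 3 and 4, whose PGC-like cells were deepest, with medians of 30125 and 75810 UMIs. A higher share at E8.5 was not particular to PGC-like cells. Among all other cells it was 9.56% and 6.76% in Tet-TKO and WT host at E7.5. At E8.5 it was 18.8%, 11.5%, 37.8% and 43.7% in Tet-TKO and 15.2% and 10.6% in WT host. Among Pou5f1-positive cells outside the rule it went from 9.50% and 7.72% to between 11.9% and 55.0%.

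Among genes of mesoderm, T was at 325 and 172 CPM at E7.5 and at 168, 44.3, 61.9, 46.9, 81.7 and 0 CPM at E8.5 (-1.97 ± 0.41, adjusted p = 0.031). T did not pass without E7.5 Tet-TKO (adjusted p = 0.87), E7.5 WT host (0.11), E8.5 Tet-TKO library 2 or 3 (0.052 and 0.062) or E8.5 WT host library 2 (0.095), nor with DESeq2 (0.75). Over 19 alternatives T had an adjusted p under 0.05 in 12. Of the 15 somatic mesoderm genes tested, 13 had a negative difference, with a median of -0.90, where 47.7% of all genes tested were negative. Of these 15, T was the only one under an adjusted p of 0.05. A lower sum of the list at E8.5 was not particular to PGC-like cells. In other cells the 16 listed genes went from 1246 to between 561 and 822 CPM in Tet-TKO. In WT host they went from 691 to between 395 and 480 CPM. In PGC-like cells they went from 1582 to between 536 and 1139 CPM in Tet-TKO and from 1065 to 671 and 202 CPM in WT host. Levels of single genes in PGC-like cells follow. Fgf8 ranged from 11.9 to 536 CPM, Cdx2 from 112 to 293 CPM and Hand1 from 0 to 120 CPM. For BMP and WNT signalling 13 of 16 genes were tested, with a median of -0.25 and no other gene under 0.05. The BMP targets Id1, Id2 and Id3 ranged from 214 to 584, 35.7 to 154 and 382 to 643 CPM and Msx1 from 111 to 278 CPM. In the genotype comparison 11 genes of this list and 12 of the mesoderm list were tested, with medians of 0.71 and 0.83, and Hand1 was the only gene of either under an adjusted p of 0.05.

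Subunits of the immunoproteasome, which processes peptides for antigen presentation, were among the genes lower at E8.5 and were named after their values were seen. Psmb8 was at 43.0 and 41.9 CPM at E7.5 and at 0 to 23.8 CPM at E8.5 (-2.73 ± 0.49, adjusted p = 0.013), and at most 2.33 CPM in other cells. Psmb10 went from 123 and 121 CPM to between 0 and 65.2 CPM (-1.56 ± 0.32, adjusted p = 0.031). Without E7.5 Tet-TKO neither passed (adjusted p = 0.94 and 0.75). Tdh, threonine dehydrogenase, a metabolic enzyme of mouse pluripotent cells, was higher at E8.5, from 21.5 and 46.5 CPM to between 68.2 and 167 CPM (1.90 ± 0.42, adjusted p = 0.044), and did not pass without E7.5 Tet-TKO (0.90), E7.5 WT host (0.11) or E8.5 WT host library 2 (0.18). In other cells of E8.5 Tdh was at 0.313 to 1.66 CPM in Tet-TKO and at 51.0 and 14.1 CPM in WT host. Over 19 alternatives Psmb8, Psmb10 and Tdh had an adjusted p under 0.05 in 16, 13 and 13.

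**Figure D5:**
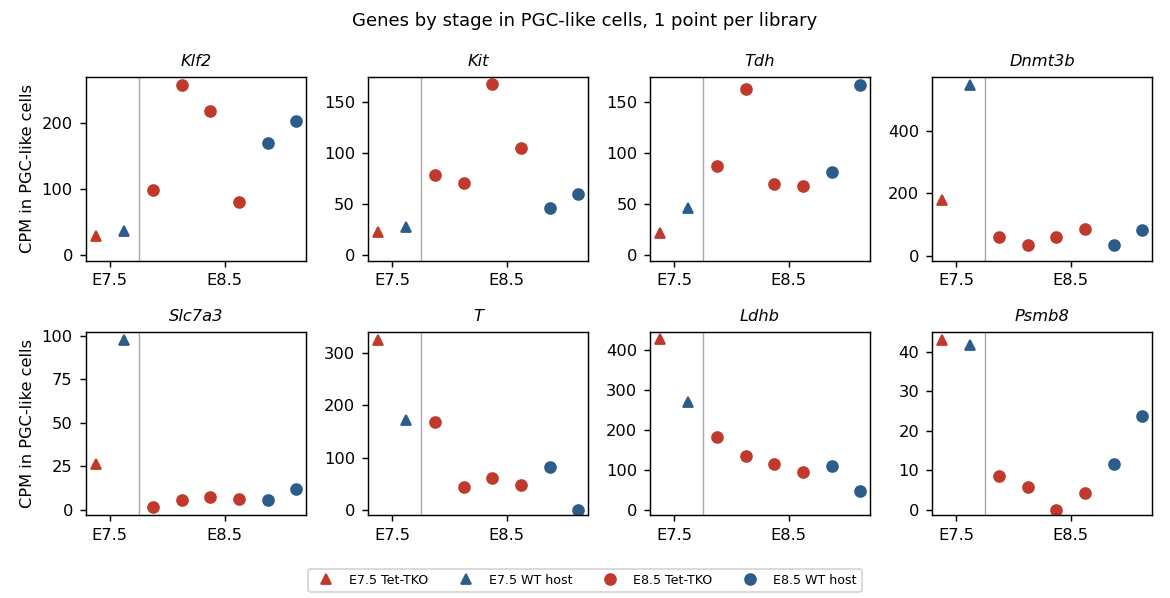
Levels of 8 genes in the PGC-like cells, in CPM, with 1 point per library, E7.5 left and E8.5 right of the grey line. Klf2, Kit and Tdh lie higher at E8.5, while Dnmt3b, Slc7a3, T, Ldhb and Psmb8 lie lower, with no overlap between the stages.

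Of 42 S phase and 52 G2/M genes, all were tested in both comparisons and edgeR called none, with medians between 0.02 and 0.21. Fitted genotype differences ran from -0.55 to 1.75 for S phase and from -1.16 to 2.26 for G2/M genes. In the simulated genotype test 2.5% of genes changed by a log2 fold of 1 were called, so the lack of calls does not show that these genes were alike. The S phase genes, led by Nasp, Pcna, Gmnn and Slbp, summed to 4321 to 6278 CPM in PGC-like cells and 4728 to 5587 CPM in other cells. The G2/M genes, led by Hmgb2, Cks2, Ube2c and Tubb4b, summed to 8224 to 11206 CPM and to 8655 to 9384 CPM.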

How the data were processed

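Single-cell RNA-seq (10x Genomics 3′ v3) of sorted cells from chimeric embryos was used. The authors mapped reads to mm10, with the tdTomato sequence added, using Cell Ranger. The file headers name version 3.1.0, while the paper names a later one. UMI counts for each gene in each barcode were deposited, not normalized. Barcodes were kept from 1500 UMIs up, with mitochondrial genes taking no more than 30% and Rps and Rpl genes no more than 35%, and the marker rule was applied. Counts were summed over PGC-like cells per library and tested with edgeR 4.0.16 in R 4.3.3 (filterByExpr, TMM, quasi-likelihood), adjusted by Benjamini and Hochberg over all genes tested, with DESeq2 1.42.0 as an alternative. A sum needed 10 PGC-like cells, relaxed to 5 as planned when no WT host library at E8.5 reached 10. Doublets were scored by Scrublet in scanpy 1.11.5 and removed only as an alternative. Thinned shares are means of 100 draws. Shares were compared by an exact permutation test over libraries. Tests were tried on simulated counts with 200 changed genes.

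Libraries total between 65601218 and 136982886 UMIs. The exact intervals of shares, CPM and pooled ratios cover counting error only, while those of edgeR log2 fold changes also take in the spread between libraries. Named genes are, per list, the 4 with the highest mean CPM and any called, and, per contrast, up to 5 called genes in each direction without overlap between groups, leaving out rule, Xist, Y-linked, tdTomato and predicted genes. Kit, Tfap2c and others shown beside them were named after their values were seen. The PGC-like cells, gene lists and tests were chosen with earlier results of these data known. The labels do not say whether equal replicate numbers mark shared embryos, so the tests have no replicate block. Some genes that the rule would name are not reported here.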

Additional observations from a re-analysis of the deposited data

Results flagged for a closer look

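T in the PGC-like cells of E8.5 Tet-TKO library 1, at 168 CPM, stood apart from the other 3 libraries of the group, at 44.3, 61.9 and 46.9 CPM. The gap took 0.858 of the range of the 4 values, above Dixon's 95% critical value for 4 samples. It was the 1 value past that limit among 45 examined, and chance puts about 1 in 20 past it.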

How the results depend on the processing

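The log2 ratio of the mean E8.5 shares, 3.25, kept its direction in all 19 alternatives (2.33 to 3.89) and in each left-out library (2.84 to 3.82). No alternative dropped Pou5f1 from the rule. Libraries 1 and 2 paired by number as a replicate block gave 2.80 with an exact p of 0.50, the smallest possible. The 8 genotype calls became 39 without a filter on low counts and 2 with doublets removed, which leaves WT host library 2 without PGC-like cells. With a library left out the calls numbered from 4 (without WT host library 2) to 9. The replicate block gave 12 calls. Library pairs of the same number were compared by their deviations in log CPM from the mean of their genotype. These deviations correlated at 0.058 and 0.093 in PGC-like cells and at 0.32 and -0.046 in other cells. The deviations of 2 WT host libraries mirror each other, so these values cannot decide whether the libraries are paired. Whether the numbers mark shared embryos is not given in the labels. Drawing 30 PGC-like cells per library was not run for genotype, since no WT host library has 30. The 9 stage calls became 17 with DESeq2, 71 without the filter, 34 at an adjusted p of 0.05, 4 with at least 3 markers, 31 with 30 cells drawn in the 3 libraries that have them, 15 without the ribosomal limit (added after seeing the data), and 0 with doublets removed (545 at an unadjusted p below 0.05). With a library left out they ranged from 0 to 24, with 3 without E7.5 Tet-TKO, 0 without E7.5 WT host or E8.5 WT host library 2, 5 without WT host library 1, and 24 and 20 without Tet-TKO libraries 1 and 4. The causes were not tested. The log2 genotype differences that changed sign were of genes that were not called. With at least 3 markers Sall4 was at 0.080, Klf2 at 0.12 and Ifitm1 at 0.16. With doublets removed Sall4 was at 0.32, Klf2 at 0.38, Ifitm1 at 0.013 and Tfap2c at 0.24. Without the filter Klf2 was at 0.055 and Ifitm1 at 0.046, and without the ribosomal limit Klf2 was at 0.11. With matching Rps3a1 shares Sall4 was at 0.027 and Lin28a at 0.42. Under the replicate block Sall4 was at 0.051 and Ifitm1 at 0.28, and with all 8 libraries Ifitm1 was at 0.18. With a library left out Sall4 ranged from -0.37 to 0.11, Lin28a from -0.37 to 0.22, Klf2 from -0.43 to 0.17, Ifitm1 from -0.28 to 0.11 and Tfap2c from -0.78 to 0.10. Of the values of named genes under alternatives, 516 kept their direction and side of the threshold, 68 lost and 42 gained a call. These counts, and those over 19 alternatives for single genes, include settings that repeat the main fit. They are the relaxed threshold and no minimum number of PGC-like cells. The WT host sums hold 171397 and 84012 UMIs from 9 and 5 cells.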
